A study of Mus musculus with 14 samples.

Results

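The MHC class II antigen presentation genes were described across 3 groups of mouse liver arrays. The set held 7 genes: H2-Aa, H2-Ab1, H2-Eb1, Cd74, H2-DMa, H2-DMb1 and Ciita. Every probe set that the platform annotation gives to 1 of these symbols was taken, which found 10 of the 22690 probe sets and 6 of the 7 genes, out of 12394 genes with a probe set of their own. H2-DMb1 had no probe set of its own symbol, since its 2 probe sets also carry the symbol of its neighbour H2-DMb2. Of the 10 probe sets, 8 were bright enough to be tested, and they covered 5 genes (H2-Aa, H2-Ab1, H2-Eb1, Cd74 and H2-DMa), while both probe sets of Ciita were too dim.

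The study used C57BL/6J mice with diet-induced obesity (DIO), and 1 array of total liver RNA was run for each of 14 samples. A first group received vehicle (n = 5). A second received an adenovirus that encodes a short hairpin RNA, or shRNA, directed at the jellyfish protein GFP (n = 4, numbered 1, 2, 3 and 5), which has no target in mice. The other virus group received a hairpin against Jnk1, the kinase encoded by Mapk8 (n = 5). All 3 groups share the strain and the obese state, the series title calls the knockdown liver-specific, and the GFP and Jnk1 groups share exposure to a virus that the vehicle group lacks. Age, sex, virus dose and time after treatment are not stated in the labels, nor is it stated that each sample was a separate mouse, so p-values reflect the variation among these arrays, which may be technical.

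MHC class II molecules sit on the surface of antigen-presenting cells and show peptides from engulfed proteins to CD4+ T cells. Each is a pair of an alpha and a beta chain: H2-Aa and H2-Ab1 encode the pair of the A molecule, and H2-Eb1 encodes the beta chain of the E molecule. C57BL/6 mice carry an inactive gene for the E alpha chain, H2-Ea, so the A molecule is the class II molecule on their cells. Cd74, the invariant chain, escorts new class II molecules to the endosome and blocks their groove. H2-DM, a pair of H2-DMa and a DM beta chain, then removes the remnant of Cd74 and helps peptides to load, and H2-O holds H2-DM back. Ciita is the co-activator without which these genes are hardly transcribed, and interferon gamma is its best known inducer outside dedicated antigen-presenting cells. In liver, dendritic cells, B cells, Kupffer cells and other macrophages carry most class II protein, and sinusoidal endothelium carries less.

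In the RefSeq annotation of GRCm38.p6, the genes of the chains lie close together on chromosome 17: H2-DMa at chr17:34119693-34139101, H2-DMb1 at chr17:34153191-34160229, H2-Ab1 at chr17:34263227-34269418, H2-Aa at chr17:34282744-34287823 and H2-Eb1 at chr17:34305867-34316674. Cd74 and Ciita lie on other chromosomes. Class II promoters are known for an X box, bound by the RFX complex, and a Y box, bound by NF-Y, to which Ciita docks. RefSeq promoter windows each run from 250 bases before to 50 bases after an annotated start. Among the members they were matched for H2-Aa, H2-Eb1, H2-DMa (2 windows) and H2-DMb1. H2-Ab1 and Ciita were not matched, and the window of Cd74 was not used here. The 140 bases before the start of 3 members are printed because each holds both boxes in the classical order. They are read 5′ to 3′ on the gene's own strand, and capitals mark a match to the start of the X box (CTNGNAAC) and then a match to the Y box (TGATTGG).
H2-Aa: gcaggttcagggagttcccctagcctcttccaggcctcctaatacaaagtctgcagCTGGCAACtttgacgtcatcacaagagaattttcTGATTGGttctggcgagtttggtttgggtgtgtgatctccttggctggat
H2-Eb1: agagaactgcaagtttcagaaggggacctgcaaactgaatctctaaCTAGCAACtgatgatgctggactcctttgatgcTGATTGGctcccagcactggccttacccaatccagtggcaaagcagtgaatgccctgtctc
H2-DMb1: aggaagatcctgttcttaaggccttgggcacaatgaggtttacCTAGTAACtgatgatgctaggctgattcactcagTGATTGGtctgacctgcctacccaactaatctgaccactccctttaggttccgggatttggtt

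The H2-Aa sequence is the minus strand of chr17:34287824-34287963, the H2-Eb1 sequence the plus strand of chr17:34305727-34305866, and the H2-DMb1 sequence the plus strand of chr17:34153051-34153190. Between the boxes lie 26 bases in H2-Aa, 25 in H2-Eb1 and 26 in H2-DMb1. The letters were chosen with these promoters in view and searched on both strands, and the 2 motifs do not overlap in these windows. Of 32851 RefSeq promoter windows, 7.82% held TGATTGG, 13.2% held CTNGNAAC, and 0.0944% (31 windows of 28 genes) held both in this order on 1 strand within 40 bases. Neither window of H2-DMa held either string. The bases before the start end at chr17:34122831 and chr17:34125517 in these 2 windows, inside the H2-DMa span given above. They therefore do not cover the first base of that span, and the sequence there was not searched. The neighbours H2-DMb2 and H2-Oa held a match to the Y box and none to CTNGNAAC. Since the letters were chosen from promoters that match them, this does not show that these neighbours lack an X box. A match describes the letters of a window and says nothing about binding in these livers.

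**Figure D1:**
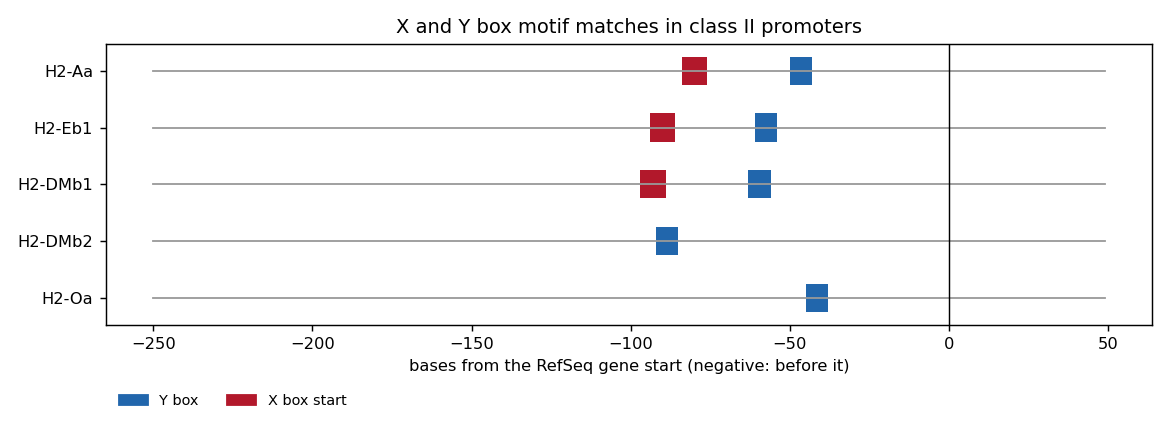
Positions of the Y box (blue) and X box start (red) matches in the RefSeq promoter windows of 5 class II genes, as bases from the gene start (horizontal axis); each grey line is 1 window from 250 bases before to 50 bases after the start. H2-Aa, H2-Eb1 and H2-DMb1 hold both matches, 25 or 26 bases apart, and H2-DMb2 and H2-Oa hold a Y box match. A missing match does not show that a box is absent.

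Values are linear probe set intensities, made comparable between arrays by quantile normalization, and differences are between means of log2 intensity, so that -1 stands for a drop to 50% of the level. The 40% dimmest probe sets were not tested and are called dim. A probe set passed, or was called, at a limma p under 0.05 after Benjamini-Hochberg adjustment over all those tested. A gene's brightness depends on its probes, so levels are compared between groups and never between genes. The targeted gene, Mapk8, checks the group labels. Its brightest probe set, 1420932_at, read 58.8 to 82.2 on the Jnk1 shRNA arrays against 159 to 182 with GFP shRNA and 149 to 186 with vehicle, a log2 difference of -1.31 ± 0.11 (SE) from GFP shRNA (limma adjusted p = 3.50e-07). Of its other tested probe sets, 1420931_at differed by -1.12 ± 0.22 from GFP shRNA and passed (limma adjusted p = 8.19e-04). Its Jnk1 shRNA mean, 24.1, lay under the lowest mean tested (28.4), so it entered the test only through the groups where it was higher. Mapk8 1437045_at stood at -0.12 ± 0.14 from GFP shRNA without passing (adjusted p = 0.561) and fell against vehicle (-0.51 ± 0.14, adjusted p = 0.00696). The 18 spike-in control probe sets, which are added in processing and report no liver gene, were dimmer with Jnk1 shRNA (log2 8.39 ± 0.32, SD, n = 5) than with GFP shRNA (8.89 ± 0.07, n = 4) or vehicle (8.90 ± 0.09, n = 5; exact two-sided permutation p = 0.0159 for each comparison). GFP shRNA array 2 stood apart, with the highest deposited median (58.3, against 41.8 to 50.5 on the other arrays) and the lowest mean correlation with its own group (0.942). Calls were recounted with spike-in brightness as a covariate, with the Jnk1 shRNA array of the highest spike-in level (array 2) alone in its group, and without GFP array 2, and these counts stand beside the results that rest on them.

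H2-Aa, the alpha chain of the A molecule, was lower with Jnk1 shRNA than in either control group. On probe set 1435290_x_at the vehicle arrays 1 to 5 read 294, 204, 362, 342 and 306. The GFP shRNA arrays 1, 2, 3 and 5 read 453, 465, 301 and 442. The Jnk1 shRNA arrays 1 to 5 read 117, 124, 162, 104 and 125. Every Jnk1 shRNA array lay below every array of the other groups, while vehicle and GFP shRNA overlapped through GFP array 3. H2-Aa fell to 30.5% of the GFP shRNA level, a log2 difference of -1.71 ± 0.17 (limma adjusted p = 2.11e-06), and to 42.3% of the vehicle level (-1.24 ± 0.16, adjusted p = 1.67e-05). With GFP shRNA it was 0.47 ± 0.17 above vehicle, which did not pass (adjusted p = 0.192).

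The other H2-Aa probe set, 1452431_s_at, was dimmer. It read 76.7, 64.3, 102, 72.9 and 75.8 with vehicle, and 133, 44.3, 92.0 and 105 with GFP shRNA, where the low value is array 2. With Jnk1 shRNA it read 42.3, 45.8, 52.9, 39.3 and 42.7. All Jnk1 shRNA arrays lay below all vehicle arrays, and GFP array 2 alone overlapped them. The difference was -0.97 ± 0.24 from GFP shRNA (limma adjusted p = 0.00559) and -0.80 ± 0.23 from vehicle (adjusted p = 0.0105). Without GFP array 2 the first of these was -1.29 on this probe set of H2-Aa, 1452431_s_at. GFP shRNA differed from vehicle by 0.17 without passing (adjusted p = 0.795), a value that was 0.49 without GFP array 2 and -0.04 without GFP array 1 (H2-Aa 1452431_s_at).

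H2-Ab1, the beta chain that pairs with H2-Aa, had 3 tested probe sets, and all of them were lower with Jnk1 shRNA than with GFP shRNA. The brightest, 1450648_s_at, read 133, 81.4, 177, 180 and 149 with vehicle, and 165, 204, 211 and 181 with GFP shRNA. With Jnk1 shRNA it read 92.4, 76.1, 85.9, 82.8 and 184. Jnk1 arrays 1 to 4 lay below every GFP array, whereas array 5 lay among them. The difference was -0.95 ± 0.25 from GFP shRNA (limma adjusted p = 0.00802), and -0.50 ± 0.24 from vehicle, which did not pass (adjusted p = 0.112). Without Jnk1 array 5, the H2-Ab1 1450648_s_at difference from vehicle was -0.72 and passed (adjusted p = 0.00788), and without vehicle array 2 it was -0.69 and passed (adjusted p = 0.0167).

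H2-Ab1 probe set 1451721_a_at read 72.8, 57.5, 70.8, 110 and 84.7 with vehicle, and 117, 98.6, 90.4 and 107 with GFP shRNA. With Jnk1 shRNA it read 60.0, 58.1, 72.9, 62.2 and 69.2, below all GFP arrays and within the vehicle range. Its difference was -0.68 ± 0.16 from GFP shRNA (limma adjusted p = 0.00388) and -0.27 ± 0.15 from vehicle (adjusted p = 0.182), where leaving out vehicle array 4 gave -0.14 and vehicle array 2 -0.37 without passing (H2-Ab1 1451721_a_at). The dimmest, 1425477_x_at, read 38.1, 23.1, 65.2, 49 and 34.8 with vehicle, 85.8, 61.0, 47.2 and 52.9 with GFP shRNA, and 18.3, 25.8, 34.0, 21.4 and 12 with Jnk1 shRNA. Its Jnk1 shRNA mean was under 28.4, the lowest mean intensity tested, so it entered the test only through the groups where it was higher and the size of its difference is uncertain. That difference was -1.51 ± 0.32 from GFP shRNA (adjusted p = 0.00171) and -0.91 ± 0.30 from vehicle (adjusted p = 0.0244). The second call was lost on leaving out vehicle array 3, vehicle array 4, Jnk1 array 1 or Jnk1 array 5 in turn, with H2-Ab1 1425477_x_at values of -0.73, -0.84, -0.86 and -0.71 and adjusted p up to 0.0711. Jnk1 array 5, the highest of its group on 1450648_s_at, was the lowest on 1425477_x_at.

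H2-Eb1, the beta chain of the E molecule, read 238, 169, 278, 304 and 248 with vehicle. It read 351, 365, 304 and 357 with GFP shRNA. It read 143, 131, 183, 140 and 131 with Jnk1 shRNA (probe set 1417025_at). The Jnk1 shRNA arrays all lay below the GFP shRNA arrays, and Jnk1 array 3 (183) was the one that reached above a vehicle array, array 2 (169). H2-Eb1 fell to 42.1% of the GFP shRNA level (-1.25 ± 0.15, limma adjusted p = 9.81e-06) and to 59.5% of the vehicle level (-0.75 ± 0.14, adjusted p = 4.48e-04). GFP shRNA lay 0.50 ± 0.15 above vehicle without passing (adjusted p = 0.0948), and the lowest GFP array equalled the highest vehicle array to 3 digits.

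Cd74, the invariant chain that escorts new class II molecules, lies apart from the genes of the chains at chr18:60803849-60812652 (GRCm38.p6). Probe set 1425519_a_at read 316, 202, 342, 295 and 287 with vehicle. It read 465, 427, 291 and 359 with GFP shRNA. It read 188, 146, 189, 141 and 145 with Jnk1 shRNA. No Jnk1 shRNA array reached an array of either control group. Cd74 fell to 42.3% of the GFP shRNA level (-1.24 ± 0.16, limma adjusted p = 2.58e-05) and to 56.5% of the vehicle level (-0.82 ± 0.15, adjusted p = 4.59e-04), and GFP shRNA lay 0.42 ± 0.16 above vehicle without passing (adjusted p = 0.219).

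H2-DMa, the alpha chain of the peptide exchanger, was tested on 1 probe set, 1422527_at, of low brightness. It read 48.2, 37.2, 60.9, 43.7 and 39.2 with vehicle. It read 81.2, 48.9, 53.7 and 47.4 with GFP shRNA. It read 35.6, 31.6, 40, 25.7 and 33.0 with Jnk1 shRNA, below every GFP shRNA array and overlapping the vehicle arrays. The difference was -0.78 ± 0.20 from GFP shRNA (limma adjusted p = 0.0071), and -0.46 ± 0.19 from vehicle, which missed the threshold (adjusted p = 0.0695) and passed without GFP array 1 (adjusted p = 0.0475 for H2-DMa 1422527_at). The 2 probe sets shared by H2-DMb1 and H2-DMb2 were dimmer still, and their signal can be given to neither gene. Probe set 1449580_s_at read 9.10 to 32.2 with vehicle, 13.9 to 40.1 with GFP shRNA and 7.11 to 10.7 with Jnk1 shRNA, and 1418638_at read 5.21 to 12.8, 6.56 to 25.6 and 2.82 to 10.0 in the same order.

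Ciita, the co-activator, lies at chr16:10480014-10531064 (GRCm38.p6) and was too dim to test. Its brighter probe set, 1421210_at, read 31.8, 26.4, 23.4, 18.3 and 22.4 with vehicle, and 22.3, 32.2, 20.5 and 20.4 with GFP shRNA. With Jnk1 shRNA it read 9.63, 22.6, 13, 16.7 and 19.8, and the groups overlapped. Probe set 1421211_a_at ranged from 2.01, the floor of the scale, to 23.5, with both ends in the Jnk1 shRNA group. When the filter on dim probe sets was dropped, the Ciita 1421210_at difference was -0.58 ± 0.29 from GFP shRNA (limma adjusted p = 0.191) and -0.62 ± 0.27 from vehicle (adjusted p = 0.123). In that setting the shared DM beta probe set 1449580_s_at passed between Jnk1 and GFP shRNA (adjusted p = 0.0244) and did not pass against vehicle (adjusted p = 0.394), and 1418638_at passed in neither (adjusted p = 0.0864 and 0.484). Their levels lay under the lowest mean tested, so no size is given.

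**Figure D2:**
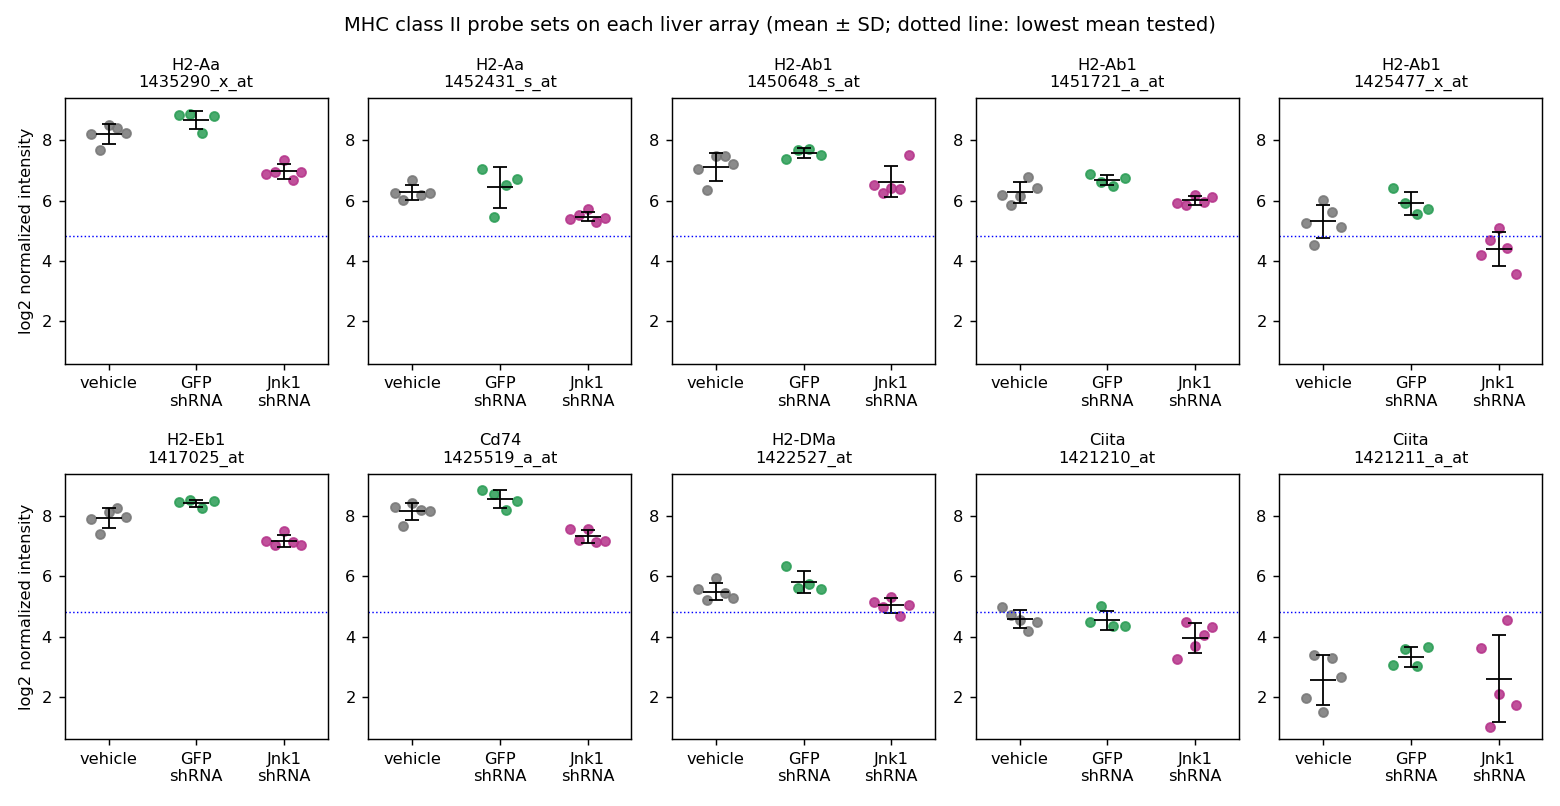
Quantile-normalized log2 intensity (vertical axis) of the 10 probe sets of the members on each array, by group (horizontal axis); points are arrays, bars are the mean ± SD, and the dotted line is the lowest mean that was tested (intensity 28.4). The Jnk1 shRNA mean lies lowest in each of the 8 panels that were tested, with Jnk1 array 5 high for H2-Ab1 1450648_s_at, and the Ciita points lie around or under the dotted line.

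The first comparison, Jnk1 against GFP shRNA, sets the Jnk1 hairpin against a control virus. All 8 tested probe sets were lower, at log2 differences of -1.71 to -0.68 with a median of -1.11, where the median over the 13575 probe sets tested was -0.01. The 8 passed the test (limma adjusted p from 2.11e-06 to 0.00802), in a comparison in which 33.1% of probe sets were called changed, 15.8% lower and 17.3% higher. In 6 of the 8 the groups did not overlap, with Jnk1 shRNA lower, and 13.3% of probe sets tested were separate in this direction. Leaving out H2-Ab1 1425477_x_at, whose Jnk1 shRNA mean lay under the lowest mean tested, 7 of 7 passed with a median of -0.97. Without GFP array 2 all 8 still passed. With spike-in brightness as a covariate 5 of the 8 passed, where 17.3% of all probe sets were called. With Jnk1 array 2 alone in its group 4 of the 8 passed, where 9.89% of all were called. H2-Aa 1435290_x_at, H2-Eb1 and Cd74 passed in both of these settings.

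The second comparison, Jnk1 shRNA against vehicle, adds the effect of the virus to that of the hairpin. It shares the Jnk1 shRNA arrays with the first and is therefore no separate test of them. All 8 values were again negative, from -1.24 to -0.27 with a median of -0.77 against -0.02 over all probe sets tested. Of the 8, 5 fell (H2-Aa on both probe sets, H2-Ab1 1425477_x_at, H2-Eb1 and Cd74), where 37.6% of all probe sets were called changed, 18.7% lower and 18.9% higher. Leaving out H2-Ab1 1425477_x_at, 4 of 7 fell with a median of -0.75. The groups were separate with Jnk1 shRNA lower in 3 of the 8, both H2-Aa probe sets and Cd74, against 13.4% of all probe sets in this direction. With the spike-in covariate, and with Jnk1 array 2 alone, 3 of the 8 passed, H2-Aa 1435290_x_at, H2-Eb1 and Cd74, where 22.2% and 14.1% of all probe sets were called.

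The remaining comparison, GFP shRNA against vehicle, shows the control virus alone. All 8 values were positive, from 0.17 to 0.60 with a median of 0.43 against -0.02 over all probe sets tested. None of the 8 passed with limma (adjusted p from 0.0948 to 0.795), where 2.58% of all probe sets were called changed, 2.05% higher and 0.530% lower. H2-Eb1 was the 1 of 8 whose groups did not overlap, with GFP shRNA higher, and 3.53% of all probe sets were separate in this direction. At an unadjusted p under 0.05 there were 4 of the 8, against 15.3% of all probe sets. The order of the group means was thus GFP shRNA, vehicle, Jnk1 shRNA for each of the 8 probe sets, and none of the 8 differences between the first and second of these passed after adjustment. In whole liver, fewer cells that carry class II RNA and less class II RNA per cell cannot be told apart.

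**Figure D3:**
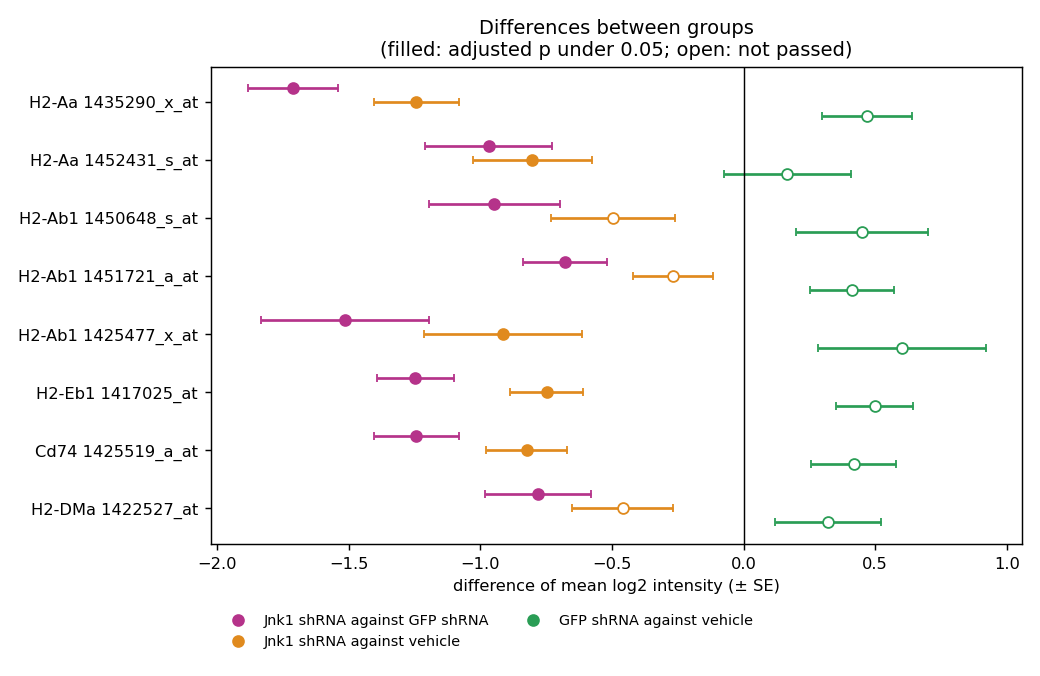
Difference of mean log2 intensity (horizontal axis, ± SE) for the 8 tested probe sets of the members (vertical axis) in the 3 comparisons; filled points passed at an adjusted p under 0.05 and open points did not. The Jnk1 shRNA differences lie between -1.71 and -0.27, and the differences of GFP shRNA from vehicle between 0.17 and 0.60 are all open.

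The tested probe sets of the members did not all fall by the same amount. A difference between genes and a difference in probe response cannot be told apart here. For each pair of probe sets the difference of their log2 values was compared between groups in 56 exact two-sided permutation tests, 28 pairs in each of the Jnk1 shRNA comparisons, with Benjamini-Hochberg adjustment. Against GFP shRNA, H2-Aa 1435290_x_at fell more than H2-Eb1 (difference of the log2 changes -0.46 ± 0.11), more than Cd74 (-0.47 ± 0.12) and more than H2-DMa (-0.93 ± 0.22), each at an adjusted exact p of 0.0317. Without GFP array 2 these differences were -0.43, -0.46 and -0.80. The test between H2-Eb1 and Cd74 did not pass (difference -0.00 ± 0.13, adjusted exact p = 0.994). Of the 24 pairs from different genes, 7 passed against GFP shRNA and 9 against vehicle. Without GFP array 2 none of the 28 pairs passed against GFP shRNA, at a lowest adjusted exact p of 0.0625, where the smallest unadjusted p that 3 arrays against 5 can give is 0.0179.

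Probe sets of 1 gene also differed. Of the 4 pairs within a gene, 1 passed in each comparison, the H2-Aa pair: 1435290_x_at fell more than 1452431_s_at by a log2 difference of -0.74 ± 0.40 against GFP shRNA and -0.44 ± 0.10 against vehicle, each at an adjusted exact p of 0.0317. GFP array 2 was the highest of its group on the first and the lowest on the second, and without it the difference against GFP shRNA was -0.36 ± 0.12 (adjusted exact p = 0.0625). For the dimmer H2-Aa probe set the tests against H2-Eb1 (0.28 ± 0.37, adjusted exact p = 0.719) and Cd74 (0.27 ± 0.39, adjusted exact p = 0.771) did not pass in the GFP shRNA comparison, and the values without GFP array 2 were -0.07 and -0.11. The suffixes x and s mark Affymetrix designs with probes that can match further transcripts. The calls that H2-Aa fell more than H2-Eb1, Cd74 and H2-DMa against GFP shRNA rest on 1435290_x_at and on all 4 GFP shRNA arrays.

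Vehicle array 2 was the lowest vehicle array on each of the 8 tested probe sets. When the profiles of the brightest probe set of H2-Aa, H2-Ab1, H2-Eb1 and Cd74 were centred on their means and averaged, the vehicle arrays 1 to 5 stood at 0.18, -0.42, 0.44, 0.40 and 0.21 on the log2 scale. The GFP shRNA arrays 1, 2, 3 and 5 stood at 0.69, 0.76, 0.41 and 0.63. The Jnk1 shRNA arrays 1 to 5 stood at -0.65, -0.83, -0.47, -0.85 and -0.51. The spread was widest with vehicle (SD 0.34, against 0.15 with GFP shRNA and 0.17 with Jnk1 shRNA).

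Over the 14 arrays, the genes whose centred profile differed least from this average by root mean square were Tcf20, a nuclear co-regulator of transcription (0.22), Hspb8, a small heat shock protein (0.23), and Pgap6 (0.25). They were followed by Snx17, a sorting protein of the endosome (0.27), Ube2z, a ubiquitin-conjugating enzyme (0.27), the sulfotransferase Sult5a1 (0.27), Bnip2 (0.29) and Heatr1 (0.29). The 4 members lay at 0.11 to 0.32 from the profile, which they themselves made up. H2-Ab1 was the furthest of them and lay beyond all 8 of these genes. Against GFP shRNA the log2 differences of these genes were -1.22 ± 0.18 for Tcf20, -1.07 ± 0.16 for Hspb8 and -1.39 ± 0.14 for Sult5a1. All 8 of these genes had negative values in both Jnk1 shRNA comparisons. They were picked on these same arrays for likeness to a profile that is low with Jnk1 shRNA, so the negative values follow from the choice.

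The genes that prepare peptides for class II molecules took mixed directions. This list held 6 genes, all tested. Among all probe sets tested, 15.8% fell and 17.3% rose against GFP shRNA, and 18.7% fell and 18.9% rose against vehicle. Against GFP shRNA, Ctss, the cathepsin that trims Cd74 in antigen-presenting cells, fell (-0.57 ± 0.14, limma adjusted p = 0.00406), while Ctsb (0.33), Ctsd (0.41) and Ifi30 (0.42 ± 0.12), the thiol reductase that unfolds antigens, rose. Against vehicle 0 fell and 4 rose, among them Ifi30 (1.12 ± 0.12) and the legumain gene Lgmn (0.39 ± 0.10), and the Ctss value was 0.20 without passing. Ctss, Lgmn and Ifi30 rose with GFP shRNA over vehicle (0.77, 0.45 and 0.70). The list medians were 0.14, 0.42 and 0.33 in the 3 comparisons, against -0.02 over all 8027 genes in each. The Ctss, Ifi30 and Ctsb calls against GFP shRNA were lost with Jnk1 array 2 alone, and with the spike-in covariate 1 gene fell and 1 rose there.

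Of the 7 genes of the transcription complex, all tested, Nfya, a subunit of the Y box factor, was the one that changed against GFP shRNA (-0.62 ± 0.17, limma adjusted p = 0.00903). Against vehicle 2 rose, Rfxank (0.48 ± 0.12) and Nfyc (0.28 ± 0.10), both lost with the spike-in covariate and with Jnk1 array 2 alone. Rfx5, the X box binding subunit, stood at -0.26 ± 0.15 against GFP shRNA and 0.09 ± 0.14 against vehicle, and passed in neither. None of the 7 was called with GFP shRNA against vehicle.

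Interferon gamma signalling to Ciita held 7 tested genes. Jak1, the kinase on its receptor, fell against GFP shRNA (-0.70 ± 0.08, limma adjusted p = 8.67e-06) and against vehicle (-0.44 ± 0.08), where the call was lost with Jnk1 array 2 alone (-0.30 for Jak1). Irf2 fell against vehicle (-0.53 ± 0.20, adjusted p = 0.0465), a call that 8 of the leave-one-out fits did not keep. Irf1, itself an interferon target, stood at -0.52 ± 0.26 against GFP shRNA without passing (adjusted p = 0.139). With the spike-in covariate 2 of the 7 fell against GFP shRNA. Ifngr1, Ifngr2, Jak2 and Usf1 passed in no comparison with all arrays, and Socs1 was dim. Among 5 tested genes of costimulation, Cd274, which encodes the inhibitory ligand PD-L1, rose with GFP shRNA over vehicle (1.60 ± 0.31, adjusted p = 0.00883) and was lower with Jnk1 than with GFP shRNA (-0.84 ± 0.31, adjusted p = 0.0461), a call lost without GFP array 2 (-0.43 for Cd274) and in 10 of the 14 leave-one-out fits in all. Cd274 also rose with Jnk1 shRNA over vehicle (0.76 ± 0.29, adjusted p = 0.0495), a call lost without GFP array 3 or 5. Both Jnk1 shRNA calls of this list were lost with the spike-in covariate and with Jnk1 array 2 alone. Without GFP array 2, 0 of the 5 fell and 1 rose with Jnk1 over GFP shRNA. Cd86 and Cd83 passed nowhere with all arrays, and Cd80 and Cd40 were dim.

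MHC class I molecules present peptides from inside the cell, and this list also holds genes that make and load those peptides. Of 11 tested genes 7 rose with GFP shRNA over vehicle, led by the immunoproteasome subunit Psmb9 (1.80 ± 0.17), the peptide transporter Tap1 (1.53 ± 0.13) and Psmb10 (1.31 ± 0.10). Of the 11, 8 rose with Jnk1 shRNA over vehicle and 0 fell, with Psmb9 at 0.88 ± 0.16, Tap1 at 0.90 ± 0.12 and Psme1 at 1.11 ± 0.10. Against GFP shRNA 5 of the 11 fell (Psmb9 -0.92 ± 0.17, Tap1 -0.63 ± 0.13, Psmb10 -0.57 ± 0.10, Erap1 and Tapbp) and Psme1 rose (0.62 ± 0.10). The class I chain gene H2-D1 was 0.37 ± 0.08 above vehicle with Jnk1 shRNA, while H2-K1 and B2m passed in no comparison. With Jnk1 shRNA against vehicle, 3 of the 5 tested class II genes fell, each by its brightest tested probe set, and 8 of the 11 class I genes rose. Of all probe sets tested, 18.7% fell and 18.9% rose there. The difference between the lists was not tested. With the spike-in covariate 5 class I genes rose over vehicle and 3 fell against GFP shRNA, and with Jnk1 array 2 alone 3 rose and 2 fell.

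**Figure D4:**
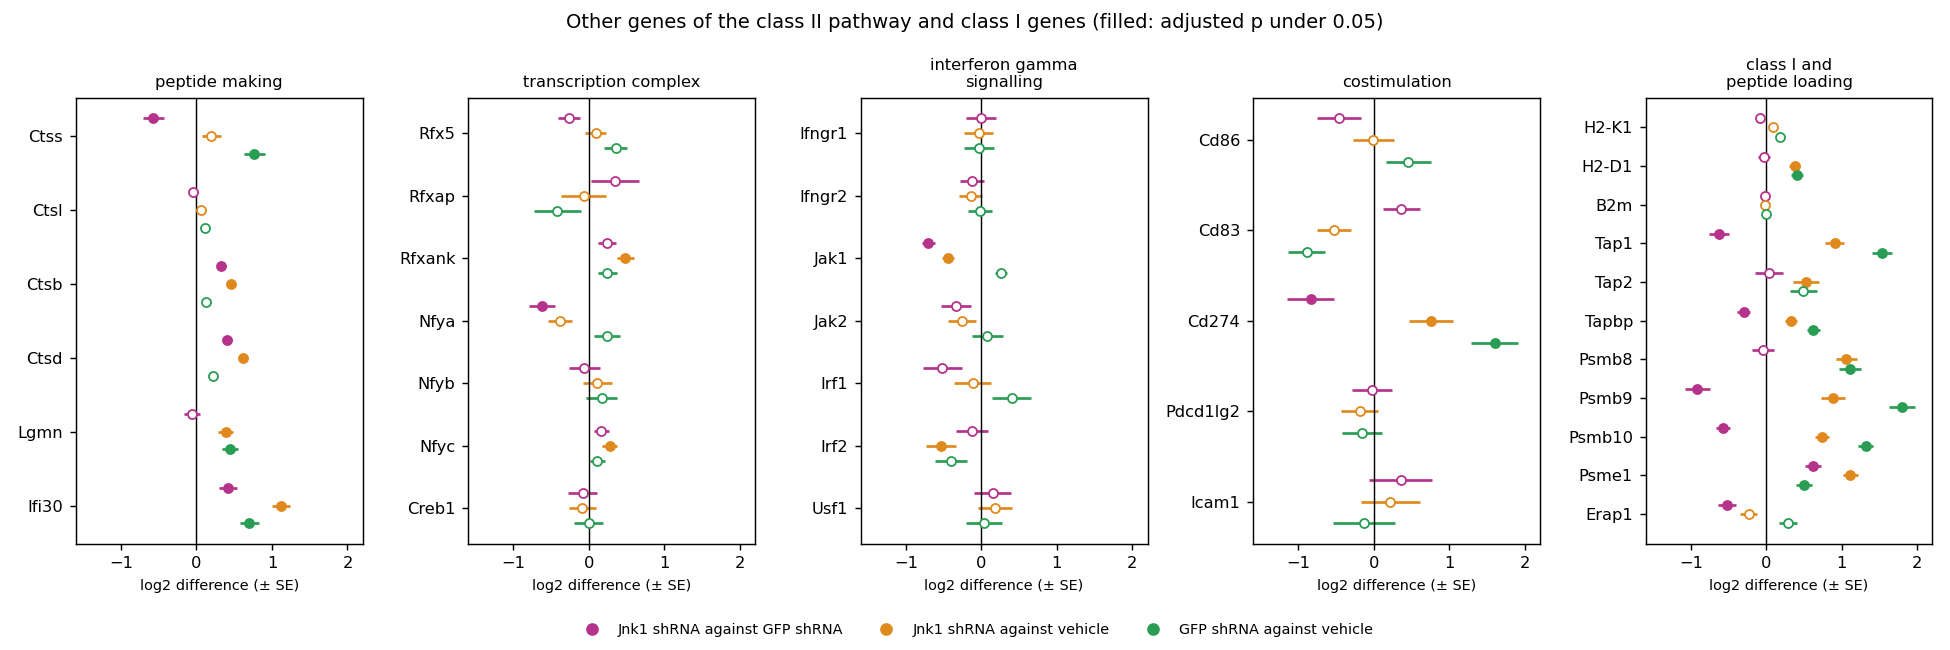
Difference of mean log2 intensity (horizontal axes, ± SE) for the tested genes of 5 lists around the members (vertical axes), in the 3 comparisons by colour; filled points passed at an adjusted p under 0.05. The class I panel has its GFP shRNA points furthest right, up to 1.80 for Psmb9, and Ctss, Cd274, Tap1, Psmb9 and Psmb10 have Jnk1 against GFP shRNA points left of 0.

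Markers of the cells that carry class II also moved, and their part in the members' differences was not tested. Of 13 tested Kupffer cell and macrophage markers, 9 fell and 0 rose against GFP shRNA (median -0.69), among them Mpeg1 (-1.30 ± 0.16), Vsig4 (-0.98 ± 0.18), Cd5l (-0.82 ± 0.11), Adgre1, which encodes F4/80 (-0.77 ± 0.13), and Csf1r, the growth factor receptor of macrophages (-0.72 ± 0.13). Against vehicle 6 fell and 0 rose (median -0.26). Over all probe sets tested, 15.8% fell against GFP shRNA and 18.7% against vehicle. With the spike-in covariate 9 fell against GFP shRNA (median -0.91) and 5 against vehicle (median -0.51), where 17.3% and 22.2% of all probe sets were called. Without GFP array 2 these counts were 7 and 6, and 1 rose against vehicle. With Jnk1 array 2 alone in its group 3 of the 13 fell in each of these comparisons. With GFP shRNA against vehicle, Clec4f and Vsig4, markers of resident Kupffer cells, fell (-1.98 and -2.06), while Mpeg1 and Cd5l rose (1.56 and 0.86). The summed intensity of the 17 markers on the array was 3800 to 6916 with vehicle, 6196 to 7102 with GFP shRNA and 3705 to 4663 with Jnk1 shRNA. Marco, Cd163, Itgam and Cx3cr1 were dim, and Emr1 and Timd4 were not matched.

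All 8 tested probe sets of the members were set against each of the 13 macrophage markers within arrays, in 312 exact two-sided permutation tests with Benjamini-Hochberg adjustment (8 probe sets, 13 markers, 3 comparisons). The 8 include H2-Ab1 1425477_x_at, whose Jnk1 shRNA mean lay under the lowest mean tested, so the size of its differences is uncertain. Between Jnk1 and GFP shRNA, H2-Aa 1435290_x_at fell more than 7 of the 13 markers, H2-Eb1 more than 3 and Cd74 more than 3. These counts rest on all 4 GFP shRNA arrays, among them array 2, which stood apart. The other H2-Aa probe set, the 3 of H2-Ab1 and H2-DMa fell more than 0 of the 13, and H2-Ab1 1451721_a_at fell less than Mpeg1 (0.62 ± 0.15, adjusted exact p = 0.0459). Against Cd68 the Cd74 difference was -1.02 ± 0.21, and against C1qa -0.87 ± 0.12 (adjusted exact p = 0.0459 for both). Against vehicle each of the 8 differences was smaller than those of Clec4f and Vsig4, which stood at -2.40 and -3.04 (adjusted exact p = 0.0459 in every case). In that comparison H2-Aa 1435290_x_at fell more than 5 markers, and H2-Aa 1452431_s_at and Cd74 each more than 1.

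Dendritic cell markers were mostly too dim to test: of 11 on the array 4 were tested, and Flt3, Xcr1, Cd209a, Batf3, Irf4, Ccr7 and Ly75 were dim. Irf8 (-0.99 ± 0.31, limma adjusted p = 0.0229) and Cst3 (-0.40 ± 0.10) fell against GFP shRNA. Itgax, which encodes CD11c, stood at 0.14 ± 0.23 there and rose against vehicle (0.61 ± 0.21, adjusted p = 0.0336), where Cst3 fell (-0.48 ± 0.09, adjusted p = 5.75e-04). With the spike-in covariate, and with Jnk1 array 2 alone, 0 of the 4 were called in either comparison. The Irf8 call was lost without GFP array 2 (-0.61, adjusted p = 0.0754). The summed intensity of the list was 995 to 1093 with vehicle, 1029 to 1272 with GFP shRNA and 755 to 1028 with Jnk1 shRNA. The part of these markers in the members' differences was not tested.

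Of the B cell markers, 3 of 10 on the array were tested, and Cd79a, Cd79b, Pax5, Cd22, Blk, Cr2 and Fcer2a were dim. Jchain, the joining chain of secreted antibodies, fell against GFP shRNA (-0.60 ± 0.17, limma adjusted p = 0.0113), and Ms4a1, which encodes CD20, stood at -0.39 ± 0.18 without passing. The Jchain call was lost with the spike-in covariate and with Jnk1 array 2 alone. None of the 3 was called in the other comparisons. The summed intensity was 270 to 359 with vehicle, 303 to 391 with GFP shRNA and 264 to 351 with Jnk1 shRNA. For the lists that follow, 15.8% of all probe sets tested fell against GFP shRNA and 18.7% against vehicle. Sinusoidal endothelium markers fell in 4 of 11 against GFP shRNA, among them Stab2 (-0.65 ± 0.09) and Fcgr2b (-0.67 ± 0.12), and in 6 of 11 against vehicle. With the spike-in covariate these counts were 3 and 3, and with Jnk1 array 2 alone 1 and 2. Their summed intensity was 1621 to 1722 with vehicle, 1463 to 1814 with GFP shRNA and 1079 to 1318 with Jnk1 shRNA. Hepatocyte markers, which check the tissue, were bright in all groups, at a summed intensity of 43308 to 47981, and fell in 3 of 10 against GFP shRNA by 0.14 to 0.52 and in 5 of 10 against vehicle, among them Tat (-1.10 ± 0.17) and Hnf4a (-0.58 ± 0.07). With the spike-in covariate these counts were 1 and 5, and with Jnk1 array 2 alone 2 and 2.

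**Figure D5:**
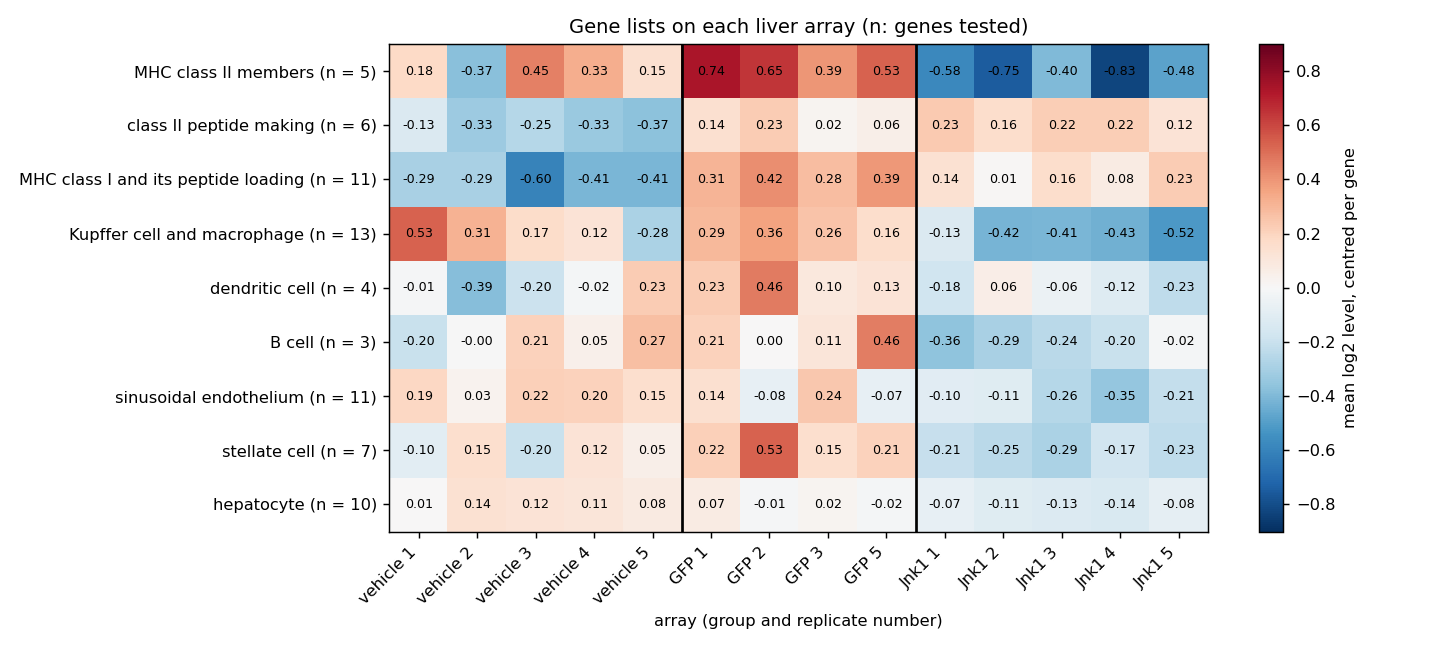
Mean log2 intensity of the tested genes of each list (rows), centred per gene over all arrays, on each array (columns, by group and replicate number); red is above and blue below the mean over arrays. The class II row is blue on all 5 Jnk1 shRNA arrays and on vehicle array 2, the class I row is blue on the vehicle arrays, and the Kupffer cell and macrophage row is blue on the Jnk1 shRNA arrays and vehicle array 5.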

How the data were processed

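Total liver RNA from 14 samples was labelled with biotin and read on 1-colour Affymetrix arrays. The authors deposited linear probe set intensities, per the labels and the values. Which software gave them is not given in the sources used here, and neither are detection calls. The deposited arrays share a trimmed mean (150.1, leaving out 2% at either end), but their medians span 0.48 on the log2 scale, so they were quantile normalized here. Values below 2.01, the 5th percentile, were raised to it before log2 was taken. Of 22626 probe sets that are no controls, the 40% with the lowest mean were left out and 13575 were tested. Without detection calls there is no direct bound on background. The number of arrays limits the precision.

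Symbols come from the platform annotation: 20393 probe sets had 1 symbol, 691 several, from which no gene was named, and 1606 none. Positions and promoters come from RefSeq (GRCm38.p6). limma 3.58.1 in R 4.3.3 fitted 3 group means to all 14 arrays (11 residual and 4.94 prior degrees of freedom, variance trend), with Benjamini-Hochberg adjustment over all tested probe sets and a threshold of 0.05. Groups do not overlap where the highest array of 1 lies under the lowest of the other. Pairs of probe sets were compared by exact permutation tests. Repeating them without GFP shRNA array 2 was chosen after seeing the data. The fit was tested on simulated data. The members and all lists were chosen with earlier results of these data known. Every probe set of the members is named, list genes that passed may be named, each list gene stands by its brightest tested probe set, and the 8 genes of most alike profile are named. Alternatives were other scalings, no filter, a pseudocount of 16, other variance models, array weights, 2-group fits, spike-in brightness as covariate, a replicate block, and fits without each array in turn. One listed gene of interferon gamma signalling is not reported here.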

Additional observations from a re-analysis of the deposited data

Results flagged for a closer look

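In groups of 4 or 5 arrays, 33 sets of values of the probe sets named above were examined for 1 array that stands far from the rest (Dixon's criterion at 95%), and 3 were found, where chance alone gives about 1 in 20. H2-Eb1 1417025_at read 183 on Jnk1 shRNA array 3, against 131 to 143 on the other 4 arrays of that group. H2-Aa 1435290_x_at read 301 on GFP shRNA array 3, against 442 to 465 on the other 3. H2-Ab1 1450648_s_at read 184 on Jnk1 shRNA array 5, against 76.1 to 92.4 on the other 4. The same array gave the lowest value of its group, 12, on H2-Ab1 1425477_x_at and a value inside the range of its group, 69.2, on H2-Ab1 1451721_a_at.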

How the results depend on the processing

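Of the 8 tested probe sets, 8 passed against GFP shRNA, 5 against vehicle and 0 with GFP shRNA against vehicle. The first count became 5 with spike-in brightness as a covariate and 4 with Jnk1 shRNA array 2 alone, an alternative chosen after seeing the data. The second became 3 in each of these settings. With that array alone, the lone sample is assumed to vary like the other groups. H2-Aa 1435290_x_at, H2-Eb1 and Cd74 were called in both settings and both comparisons. Leaving out single arrays gave 8 to 8, 4 to 6 and 0 to 0. The second count was 6 with the values as deposited and with array weights. With all arrays brought to 1 median, 72.3% of the calls against GFP shRNA were higher instead of 52.3%, the median of all probe sets was 0.09, and the counts of members stayed at 8, 5 and 0. No direction was reversed among called values. Over 24 settings and 8 probe sets, 185 of 192 values kept their side of the threshold against GFP shRNA, 179 of 192 against vehicle and 192 of 192 for GFP shRNA against vehicle. Arrays of different groups with the same replicate number had correlations of -0.24 to 0.12 over 13 pairs (median 0.04), and 2 pairs exceeded 0.1. The median over pairs of different numbers was -0.006. These are not correlations of whole arrays, whose mean with their own group was 0.942 to 0.981. They do not settle whether the numbers mark a shared batch or a pairing. With the replicate block the counts were 8, 5 and 0. Brightness limits H2-DMb1 and Ciita, and the deposited values give no detection calls.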

Other observations

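Among the class II molecules outside the member set, H2-DMb2 had 1 tested probe set of its own, 1419744_at. It read 55.8, 36.7, 41.5, 25.5 and 39.2 with vehicle, 15.2, 48.0, 48.0 and 43.8 with GFP shRNA, and 31.3, 28.7, 22.3, 27.6 and 19.7 with Jnk1 shRNA. Its log2 difference was -0.46 ± 0.32 from GFP shRNA (limma adjusted p = 0.287) and -0.59 ± 0.30 from vehicle (adjusted p = 0.141). The Jnk1 shRNA mean of H2-DMb2 1419744_at, 25.5, lay under the lowest mean tested. This probe set entered the test only through the groups where it was higher, so the size of these differences is uncertain. H2-Oa, the alpha chain of the molecule that restrains H2-DM, was dim at 3.60 to 29.2 over all arrays. The 3 probe sets of H2-Ea, a gene that C57BL/6 mice carry in inactive form, were dim too, with 2.01 as the lowest value and 36.9 as the highest.

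T and NK cell markers took another order. Of all probe sets tested, 18.9% rose with Jnk1 shRNA over vehicle and 2.05% with GFP shRNA over vehicle. Of 3 tested markers, 3 rose with Jnk1 shRNA over vehicle, Nkg7 (2.17 ± 0.21), Gzma (1.10 ± 0.28) and Gzmb (1.68 ± 0.50), and Nkg7 rose with GFP shRNA (1.93 ± 0.23, limma adjusted p = 1.18e-04). With spike-in brightness as a covariate 2 of the 3 rose over vehicle, and with Jnk1 array 2 alone 1 did. None of the 3 was called between Jnk1 and GFP shRNA, with values of 0.04 to 0.44, and Cd3e, Cd3d, Cd3g, Cd4 and Cd8a were dim. Against GFP shRNA 15.8% of all probe sets tested fell, and against vehicle 18.7%. Of 7 tested stellate cell genes, 5 fell against GFP shRNA, among them Reln (-0.95 ± 0.09) and Dcn (-0.45 ± 0.07), and 3 fell against vehicle. The first count was 3 without GFP array 2, 3 with spike-in brightness as a covariate and 1 with Jnk1 array 2 alone, and the second was 3, 2 and 1. Of 4 tested neutrophil markers, none was called with limma in any comparison, and 1 fell against vehicle with spike-in brightness as a covariate, as 1 did without GFP array 2.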
